A study of Homo sapiens with 2 samples.

Results

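Ceramide and the lipids made from it are the sphingolipids, and 39 genes of their synthesis, conversion, breakdown and signalling were followed in the lung carcinoma line A549. The genes were chosen by symbol, current or older (LASS2 for CERS2), and not by their change. RNA of cells given TGF-β (12 h, 1 ng/ml) and of control cells without TGF-β was hybridized to 1 Affymetrix array each. The differences therefore have no replicate check, no p-value is given, and variation between cultures or arrays cannot be told apart from the treatment. The study asked how TGF-β leads to cleavage of the transcription factor CREB3L1, and it examined ceramide in these cells. Of the 39 genes, 28 had a probe set bright enough to be compared, out of 12375 genes in all, 6 were dim, 2 (CERS1 and SMPD4) had only probe sets shared with another gene, and 3 (SPTLC3, ASAH2 and SPHK2) had no probe set under their names in the annotation used here and were not analysed here.

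Sphingolipid synthesis starts in the ER, where serine palmitoyltransferase joins serine to a fatty acyl chain. The product is reduced, acylated by a ceramide synthase and desaturated to ceramide, which is carried to the Golgi and turned into sphingomyelin or glucosylceramide. Ceramidases release sphingosine from ceramide, and sphingosine kinases phosphorylate it to sphingosine 1-phosphate, a ligand of G protein-coupled receptors on the cell surface. Sphingosine 1-phosphate is either dephosphorylated, which returns sphingosine to the ceramide pool, or cleaved by a lyase, which is the exit from the pathway.

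The signals are intensities on a linear scale made by the authors with MAS5, which summarizes the probes of each probe set as a single value. A fold change is the ratio of the signal with TGF-β to the control signal, and its log2 value is used where directions are compared. Each gene was represented by its brightest probe set whose mean signal reached 48.7, the median of all non-control probe sets. The background was the highest signal of 27 probe sets for Bacillus subtilis transcripts, 56.6 on the TGF-β array and 45.8 on the control array, and all 28 genes were above it on both arrays. Signals of different genes come from different probes and were not set against each other. The treatment was visible in SMAD7, a Smad target with signals of 1620 with TGF-β and 786 in the control, and in TM4SF20, with 339 with TGF-β and 1715 in the control. All 5 epithelial markers examined were above background on both arrays. Their directions differed: KRT8 read 19630 with TGF-β and 16817 in the control, and KRT18 read 38248 with TGF-β and 33810 in the control. The other 3 were lower: CDH1 (E-cadherin) read 846 with TGF-β and 1952 in the control. EPCAM read 1616 with TGF-β and 2176 in the control, and KRT19 read 991 with TGF-β and 1492 in the control. Of 3 immune markers with a reading only CD14 was above background, at 63.0 with TGF-β and 190 in the control. CD68, a further immune marker on the list, had no reading here. Of 5 fibroblast markers 0 were above background with TGF-β and 2 (THY1 and DCN) in the control. Of 3 endothelial markers PECAM1 was above background, at 65.4 with TGF-β and 56.4 in the control. Their part in the results was not tested. The immune markers PTPRC and CD3D, the endothelial markers VWF and CDH5 and the fibroblast markers PDGFRA, PDGFRB and LUM were at background on both arrays.

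The largest change among the 28 genes was that of SPHK1, which encodes a kinase that makes sphingosine 1-phosphate. Its signal was 945 with TGF-β and 245 in the control, a 3.85-fold difference. SGPL1, the lyase that breaks sphingosine 1-phosphate down, was also higher, and the receptor S1PR3 and the glucosylceramide synthase UGCG were lower. At their brightest probe sets, the enzymes that make ceramide itself differed less than these 4 genes. Dimmer probe sets of SPTLC2 and KDSR reached log2 fold changes of 0.90 and 0.63. Only SPHK1, 1 of the 28 genes, reached a 2-fold rise, as did 3.94% of all genes, and 0 reached a 2-fold drop, as did 2.96% of all genes. At 1.5-fold, 2 of the 28 (7.14%) were higher and 3 (10.7%) were lower, against 9.16% and 9.08% of all genes, so the shares were close to those of all genes. With a stricter filter (mean signal of at least 349) 24 of them were compared: 1 reached a 2-fold rise (2.52% of all genes did) and 0 a 2-fold drop (0.806%), while 2 were at least 1.5-fold higher (6.18%) and 2 at least 1.5-fold lower (3.9%). The median log2 fold change of the 28 was 0.10, and that of all genes was -0.03. Of the 28, 16 (57.1%) differed by less than 1.2-fold, as did 54.4% of all genes. In bulk RNA, fewer cells with a transcript and less transcript per cell cannot be told apart.

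**Figure D1:**
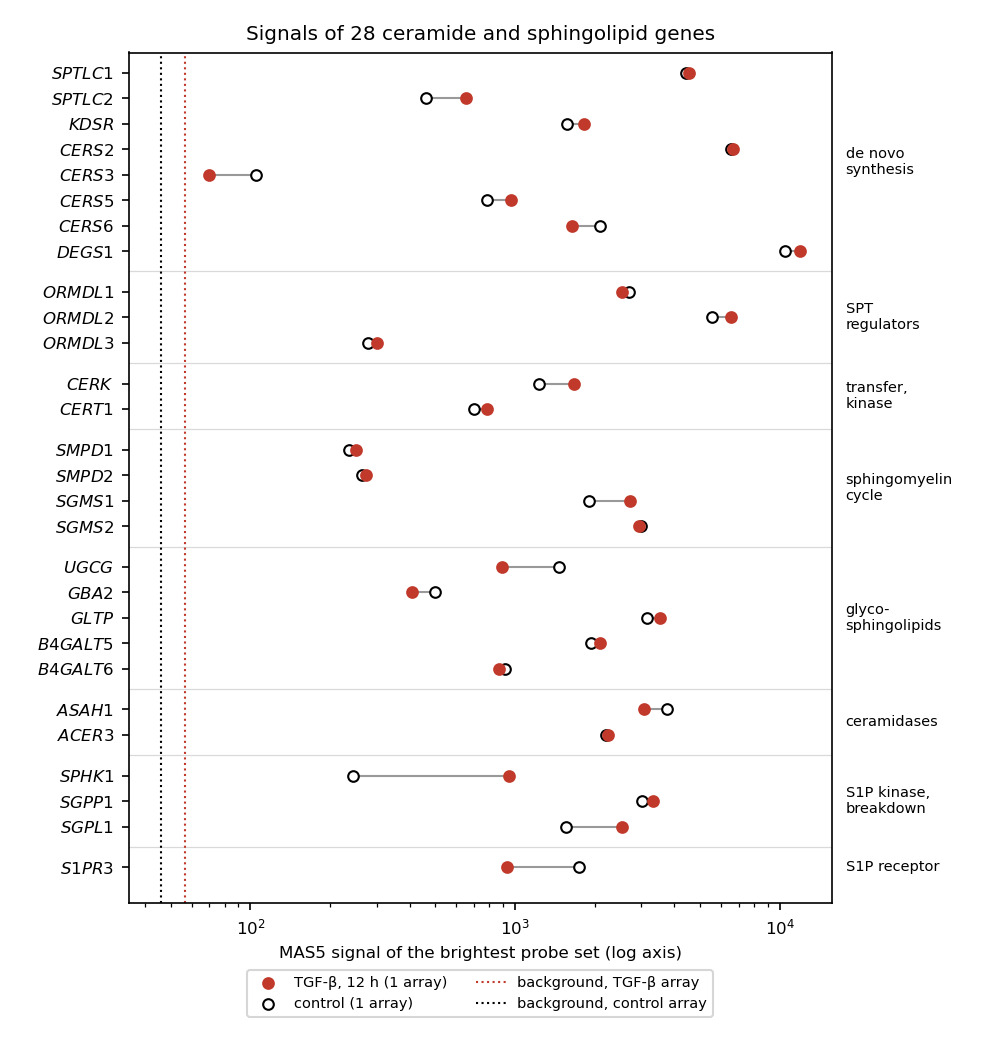
Signals of the brightest probe set of each of the 28 genes on the TGF-β array (red) and on the control array (open), on a log axis, grouped by role (SPT, serine palmitoyltransferase; S1P, sphingosine 1-phosphate). Points are single arrays, and the background is drawn as dotted lines, 1 for each array (56.6 for TGF-β and 45.8 for the control). The widest gap is that of SPHK1, at 945 with TGF-β and 245 in the control.

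The spread of log2 fold changes over the 500 probe sets closest in brightness gives a scale for these differences, but replicates do not enter it. For SPHK1 the log2 fold change was 1.95 and the spread was 0.32. Among the 11513 genes with both signals above background, the rise of SPHK1 ranked 56, so 0.486% of these genes were raised as much or more. Of the 28 genes, 12 (42.9%) differed by more than the spread at their brightness, and so did 37.7% of all genes. By more than 2 such spreads, 5 of the 28 (17.9%) and 11.9% of all genes differed. Of the 5, SPHK1, SGPL1 and SGMS1 were higher and UGCG and S1PR3 were lower. SPHK1 had only 1 probe set, of a kind that by its name can bind more than 1 transcript, so no second reading of this gene was available.

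**Figure D2:**
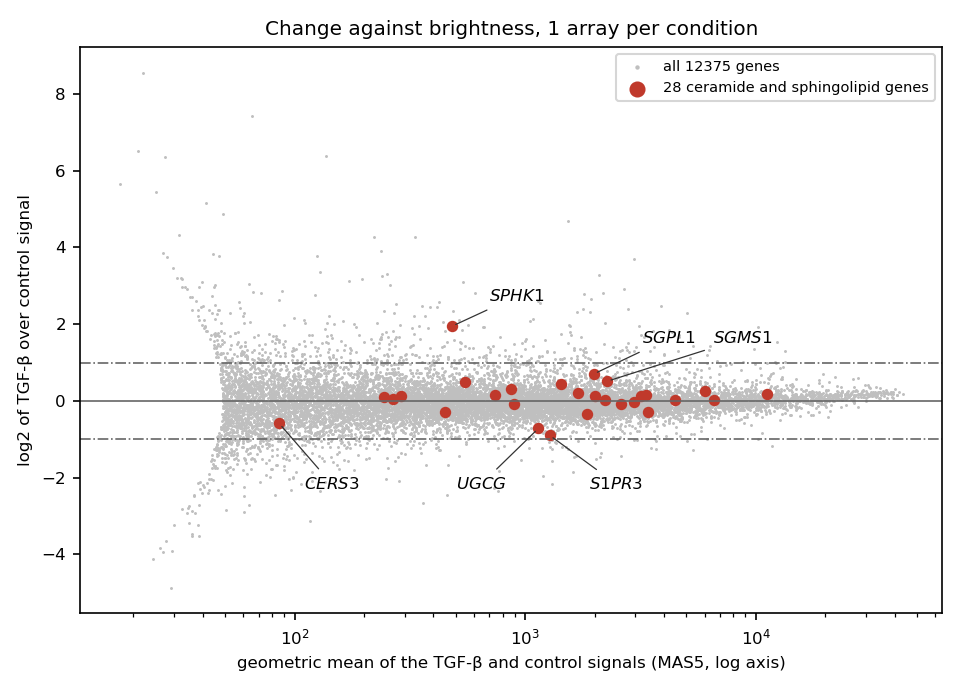
Log2 ratio of the TGF-β signal to the control signal (y axis) against the geometric mean of both signals (x axis, log scale) for 12375 genes (grey) and the 28 ceramide and sphingolipid genes (red), 1 array per condition. The solid line marks equal signals and the broken lines a 2-fold difference. SPHK1 lies above the upper broken line and the other 27 genes lie between the lines.

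SGPL1 encodes the lyase that cleaves sphingosine 1-phosphate irreversibly. Its brightest probe set read 2527 with TGF-β and 1554 in the control, a 1.63-fold increase (log2 fold change of 0.70, spread 0.28). A second probe set read 1772 with TGF-β and 1150 in the control, so both bright probe sets were higher by similar amounts. The last one read 56.7 with TGF-β, where the background was 56.6, and 43.9 in the control, where it was 45.8. It was too close to background on both arrays to tell a direction. SGPP1, a phosphatase that returns sphingosine 1-phosphate to sphingosine, read 3333 with TGF-β and 3029 in the control, a ratio of 1.10. The other SGPP1 probe set read 797 with TGF-β and 820 in the control, so its direction was not settled. Thus SPHK1 and SGPL1 were higher with TGF-β, whereas SGPP1 was nearly the same on both arrays. The second phosphatase, SGPP2, is in the wider list below and was 1.78-fold lower at its brightest probe set.

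S1PR3 and S1PR2 encode receptors of sphingosine 1-phosphate, and only S1PR3 could be compared. Its signal was 936 with TGF-β and 1743 in the control, a drop of 1.86-fold (log2 fold change of -0.90, spread 0.30). Of the 11513 genes with both signals above background, 2.06% were lowered as much or more. A further S1PR3 probe set was at background on both arrays, at 46.2 with TGF-β and 4.33 in the control. S1PR2, the other receptor on the list, was dim. Its best probe set read 35.5 with TGF-β, which is background, and 61.4 in the control, and the mean of 48.4 was just under the limit for comparison.

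Stretches upstream of the start sites of 4 genes are shown because these genes had the largest differences among the 28 at their brightest probe sets. SPHK1 and SGPL1 were higher and S1PR3 and UGCG lower. The stretches are the 250 bases before the most upstream start site that RefSeq gives for each gene in GRCh38.p14. All are on the plus strand and written 5′ to 3′. Capitals mark matches on either strand to CAGAC (the Smad box), TGANTCA (the AP-1 site) or GGGCGG (the GC box); TATAAA was searched too and was found in none of the windows of these genes.
SPHK1, chr17:76382954-76383203: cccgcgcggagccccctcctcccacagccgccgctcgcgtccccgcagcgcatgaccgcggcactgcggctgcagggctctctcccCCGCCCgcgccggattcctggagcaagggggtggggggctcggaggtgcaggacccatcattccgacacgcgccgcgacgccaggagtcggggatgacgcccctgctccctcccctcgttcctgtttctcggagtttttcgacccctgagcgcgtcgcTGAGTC
SGPL1, chr10:70815698-70815947: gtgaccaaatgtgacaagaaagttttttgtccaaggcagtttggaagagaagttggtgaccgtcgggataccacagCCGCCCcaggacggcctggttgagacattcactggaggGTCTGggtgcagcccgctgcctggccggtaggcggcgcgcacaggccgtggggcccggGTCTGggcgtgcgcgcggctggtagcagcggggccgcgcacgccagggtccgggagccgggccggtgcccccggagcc
S1PR3, chr9:88990613-88990862: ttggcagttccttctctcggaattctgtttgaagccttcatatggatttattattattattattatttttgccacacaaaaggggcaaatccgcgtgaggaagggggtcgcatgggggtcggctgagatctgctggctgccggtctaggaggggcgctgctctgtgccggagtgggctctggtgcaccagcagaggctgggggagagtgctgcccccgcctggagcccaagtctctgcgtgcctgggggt
UGCG, chr9:111896564-111896813: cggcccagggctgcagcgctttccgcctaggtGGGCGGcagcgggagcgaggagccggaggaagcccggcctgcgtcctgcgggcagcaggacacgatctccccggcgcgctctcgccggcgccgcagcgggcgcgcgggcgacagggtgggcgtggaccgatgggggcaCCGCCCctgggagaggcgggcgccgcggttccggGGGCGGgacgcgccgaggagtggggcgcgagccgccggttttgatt
The search covered 300 bases, from 250 before the start to 50 after it. In the SPHK1 window the match to TGANTCA begins 6 bases before the start, so its last base lies past the printed stretch. Of 35116 such windows in the RefSeq table, 45.3% held CAGAC, 7.71% held TGANTCA, 45.0% held GGGCGG and 11.5% held TATAAA. SPHK1 has 3 windows, for different start sites, and TGANTCA was found in 2 of them, at 6 and at 71 bases before the start. SGPL1 held CAGAC 2 times, at 136 and 78 bases before the start. UGCG held GGGCGG 3 times. The S1PR3 window shown held none of the 4 motifs, while its second window held GGGCGG 8 times, with an overlap between 2 of the matches. These are matches of letters and not sites shown to be bound.

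Of the 8 genes of ceramide synthesis that could be compared, 4 (SPTLC1, KDSR, CERS2 and DEGS1) differed by less than 1.2-fold, SPTLC2 and CERS5 were higher by more than that, and CERS3 and CERS6 were lower. SPTLC1 and SPTLC2 encode the catalytic pair of serine palmitoyltransferase, the first and rate-limiting enzyme. SPTLC1 read 4525 with TGF-β and 4419 in the control. SPTLC2 read 651 with TGF-β and 462 in the control, a 1.41-fold increase, and all 4 of its probe sets above background were higher, with log2 fold changes between 0.19 and 0.90. KDSR, the reductase of the second step, read 1820 with TGF-β and 1573 in the control, and its 3 probe sets above background gave log2 fold changes between 0.21 and 0.63. The widest of these belonged to its dimmest compared probe set, at 381 with TGF-β and 246 in the control. DEGS1, the desaturase that makes ceramide from dihydroceramide, read 11893 with TGF-β and 10489 in the control. DEGS2, a related desaturase, was at background on both arrays (4.54 with TGF-β and 8.14 in the control).

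The ceramide synthases differ in the acyl chain they attach. CERS2, which prefers very long chains, read 6675 with TGF-β and 6543 in the control. CERS5 and CERS6 both prefer palmitoyl chains and did not move the same way. CERS5 read 968 with TGF-β and 786 in the control, a ratio of 1.23. CERS6 read 1640 with TGF-β and 2091 in the control, 1.27-fold lower. Its 3 probe sets above background were all lower, with log2 fold changes between -0.35 and -0.26. All 3 are of a kind that by its name can bind several transcripts. The CERS6 change was larger than the spread of 0.27 at its brightness and that of CERS5 was within a spread of 0.31. CERS3, known for the ultra-long chains of skin, was dim. It read 69.9 with TGF-β and 105 in the control, a log2 fold change of -0.59 against a spread of 0.53, and it passed 1.5-fold so narrowly that rescaling the arrays to equal medians took it under that size. CERS4 was at background on both arrays (8.45 with TGF-β and 8.53 in the control).

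The ORMDL proteins bind serine palmitoyltransferase in the ER and inhibit it. ORMDL1 read 2536 with TGF-β and 2693 in the control, ORMDL2 6558 with TGF-β and 5527 in the control, and ORMDL3 301 with TGF-β and 278 in the control. None of the 3 reached 1.2-fold. ORMDL2 alone differed by more than the spread at its brightness, with a log2 fold change of 0.25 and a spread of 0.18.

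**Figure D3:**
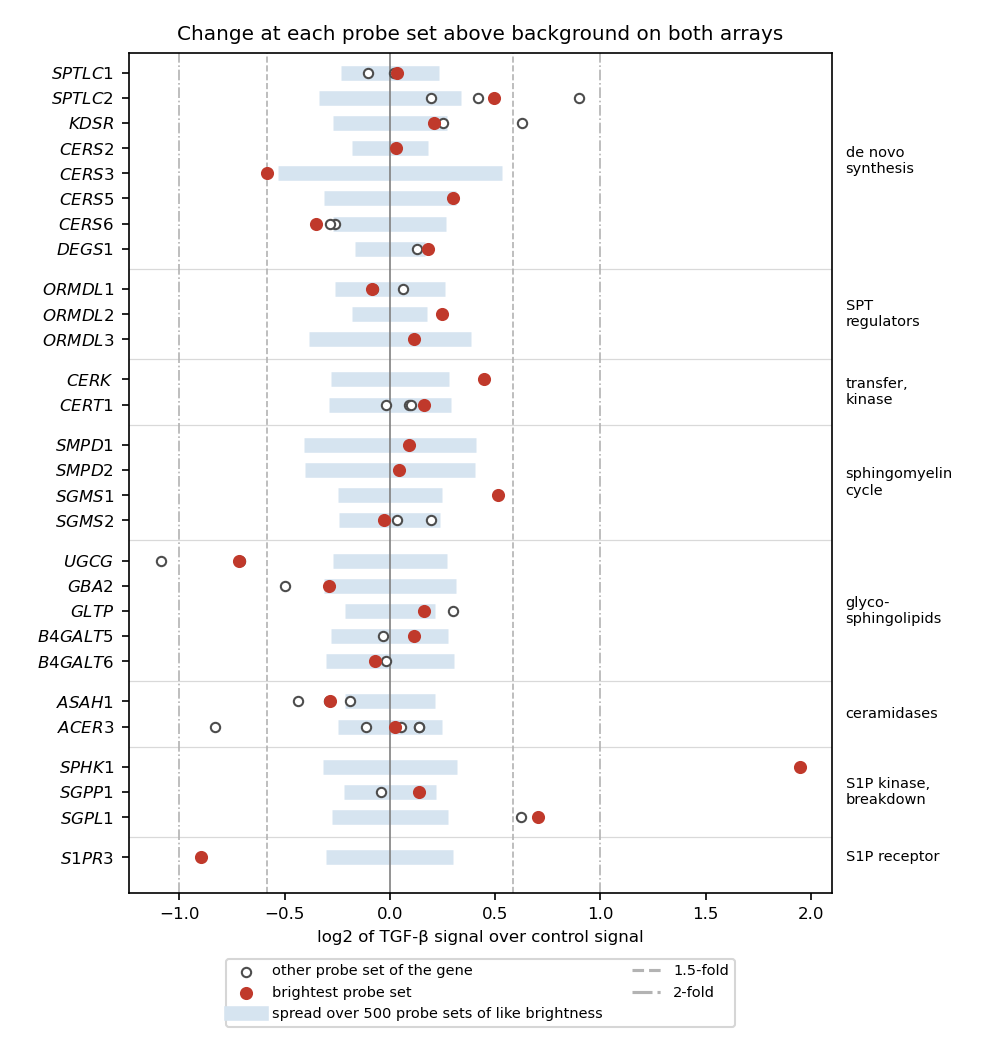
Log2 ratio of the TGF-β signal to the control signal (x axis) for every probe set with both signals above background, in the 28 genes (rows, grouped by role). Red points are the brightest probe set of a gene and open points its others, blue bars span the spread over the 500 probe sets of like brightness on either side of 0, and broken lines mark 1.5-fold and 2-fold. The 3 UGCG probe sets lie left of the bar and both SGPL1 probe sets right of it, while the 6 ACER3 probe sets lie on both sides of 0.

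Ceramide leaves the ER through the transfer protein CERT1, whose 4 probe sets gave log2 fold changes between -0.02 and 0.16. Its brightest read 782 with TGF-β and 698 in the control. CERK, which phosphorylates ceramide to ceramide 1-phosphate, read 1675 with TGF-β and 1227 in the control, a 1.37-fold increase with a log2 fold change of 0.45 and a spread of 0.28. In the Golgi, sphingomyelin is made by SGMS1. It read 2708 with TGF-β and 1899 in the control, a 1.43-fold increase with a log2 fold change of 0.51 and a spread of 0.25. SGMS2, the related synthase found also at the plasma membrane, read 2942 with TGF-β and 3004 in the control. Both CERK and SGMS1 were measured by 1 probe set each. The sphingomyelinases, which release ceramide from sphingomyelin, changed little. SMPD1, the acid enzyme of lysosomes, read 251 with TGF-β and 236 in the control. SMPD2, a neutral enzyme, read 272 with TGF-β and 264 in the control. SMPD3, another neutral sphingomyelinase, was at background on both arrays (21.7 with TGF-β and 5.43 in the control at its brighter probe set).

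UGCG encodes the enzyme that adds glucose to ceramide and so starts most glycosphingolipids. Its brightest probe set read 890 with TGF-β and 1463 in the control, 1.64-fold lower (log2 fold change of -0.72, spread 0.27). The second read 266 with TGF-β and 565 in the control, which is 2.13-fold lower, and the dimmest 135 with TGF-β and 221 in the control. All 3 probe sets were thus lower with TGF-β, by at least 1.6-fold each. B4GALT5 and B4GALT6, which add galactose to glucosylceramide, did not move with UGCG. B4GALT5 read 2094 with TGF-β and 1933 in the control, and B4GALT6 read 868 with TGF-β and 913 in the control. GBA2, a glucosylceramidase outside the lysosome, read 408 with TGF-β and 498 in the control, and its second probe set 162 with TGF-β and 229 in the control, so both were lower while the change of the brighter one was within the spread of 0.31. GLTP, which carries glucosylceramide between membranes, read 3533 with TGF-β and 3161 in the control.

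Among the ceramidases, which free sphingosine from ceramide, ASAH1 of the lysosome was lower by a small amount. Its signal was 3081 with TGF-β and 3758 in the control, 1.22-fold lower, and 4 of 4 probe sets above background were lower, with log2 fold changes between -0.44 and -0.19. ACER3, an alkaline ceramidase, read 2243 with TGF-β and 2208 in the control. Of its 6 probe sets above background 4 were higher and 2 lower, and the dimmest, at 70.2 with TGF-β and 125 in the control, had a log2 fold change of -0.83. The related ACER1 (6.87 with TGF-β and 4.57 in the control) and ACER2 (8.02 with TGF-β and 7.49 in the control) were at background on both arrays.

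Probe sets of the same gene serve as a check within each array, although they share the RNA. Of 17 genes with 2 or more probe sets above background on both arrays, 10 had all of them in the same direction. These 10 were SPTLC2, KDSR, CERS6, DEGS1, UGCG, ASAH1, SGPL1, GBA2, GLTP and B4GALT6. The same share over all genes was not counted, and several of the 10 had only 2 such probe sets. The count is therefore not read as a trait of these genes. In the other 7, SPTLC1, SGMS2, ACER3, CERT1, ORMDL1, SGPP1 and B4GALT5, the brightest probe set differed by less than 1.2-fold.

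A wider list of 54 genes of the pathway, none of them among the 39, was drawn up by function. Earlier results of these data were known when the list was made, so the shares below are not an independent result. Of the 54 genes, 42 were bright enough to be compared. A 2-fold rise was reached by 2 of the 42 (4.76%, against 3.94% of all genes) and a 2-fold drop by 4 (9.52%, against 2.96% of all genes). At 1.5-fold 3 were higher (7.14%, against 9.16% of all genes) and 9 were lower (21.4%, against 9.08%), and the median log2 fold change was -0.02. S1PR5 and SPNS2 are in these counts although each was above background on 1 array only. The largest difference was that of S1PR5, another receptor of sphingosine 1-phosphate, which read 464 with TGF-β and 33.7 in the control. The control signal was at background, so S1PR5 was at least 10.1-fold higher. Its other 2 probe sets were at background on both arrays. Thus S1PR5 was higher and S1PR3 lower with TGF-β, while S1PR1 and S1PR4 were too dim to be compared. SPNS2, a transporter that exports sphingosine 1-phosphate, read 21.6 with TGF-β, which is background, and 87.8 in the control, and was at least 1.55-fold lower.

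The other genes of the wider list that differed by 2-fold were ST3GAL5, FA2H, GAL3ST1 and ST3GAL2. ST3GAL5, which makes the ganglioside GM3, read 3768 with TGF-β and 1728 in the control, a 2.18-fold increase. Its log2 fold change was 1.12 and the spread was 0.26. The only ST3GAL5 probe set is of a kind that by its name can bind several transcripts. FA2H, which hydroxylates the fatty acid of sphingolipids, read 293 with TGF-β and 602 in the control, 2.06-fold lower, and its other probe set read 32.0 with TGF-β, which is background, and 73.5 in the control. GAL3ST1, which sulfates galactosylceramide to sulfatide, read 150 with TGF-β and 328 in the control, 2.19-fold lower. UGT8, which makes galactosylceramide, read 135 with TGF-β and 227 in the control, 1.68-fold lower, while its second probe set was near background at 50.2 with TGF-β and 56.0 in the control. UGT8 and GAL3ST1, which act in turn on the way from ceramide to sulfatide, were thus both lower at their brightest probe sets. ST3GAL2, another sialyltransferase, read 272 with TGF-β and 665 in the control at its brightest probe set, but 273 with TGF-β and 198 in the control at the next and 227 with TGF-β and 217 in the control at the one after it, so its direction depended on the probe set. The brightest ST3GAL2 probe set is of a kind whose name marks binding to several transcripts.

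Near the start of the pathway, SPTSSA, a small subunit that activates serine palmitoyltransferase, read 5601 with TGF-β and 8711 in the control, 1.56-fold lower, and its second probe set had a log2 fold change of -0.90. SPTLC2 was 1.41-fold higher on the same arrays, so subunits of this enzyme differed in opposite directions. ELOVL6, which lengthens palmitate and so competes for its supply, read 593 with TGF-β and 1116 in the control, 1.88-fold lower, and its 3 probe sets were all lower, with log2 fold changes between -1.21 and -0.91. SGPP2, the second phosphatase of sphingosine 1-phosphate, read 225 with TGF-β and 401 in the control, 1.78-fold lower. Its next probe set had a log2 fold change of -0.17. The dimmest read 50.1 with TGF-β, which is background, and 83.3 in the control, and was at least 1.47-fold lower. Of the genes of lysosomal breakdown, PSAP, the precursor of the saposins, read 14115 with TGF-β and 12857 in the control. HEXA, a subunit of hexosaminidase, read 2765 with TGF-β and 2566 in the control at its brightest probe set and 91.3 with TGF-β and 60.0 in the control at the next. Other genes of the wider list differed more at their brightest probe sets, in both directions. ARSA was 1.46-fold higher, at 121 with TGF-β and 82.3 in the control, and its other probe set was 1.07-fold higher. NEU4 was 1.65-fold higher, at 108 with TGF-β and 65.0 in the control. NEU3 was 1.55-fold lower. A dimmer NEU3 probe set read 58.6 with TGF-β and 46.5 in the control. Another, too dim to be compared, read 63.4 with TGF-β and 20.8 in the control, and the last was at background on both arrays.

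**Figure D4:**
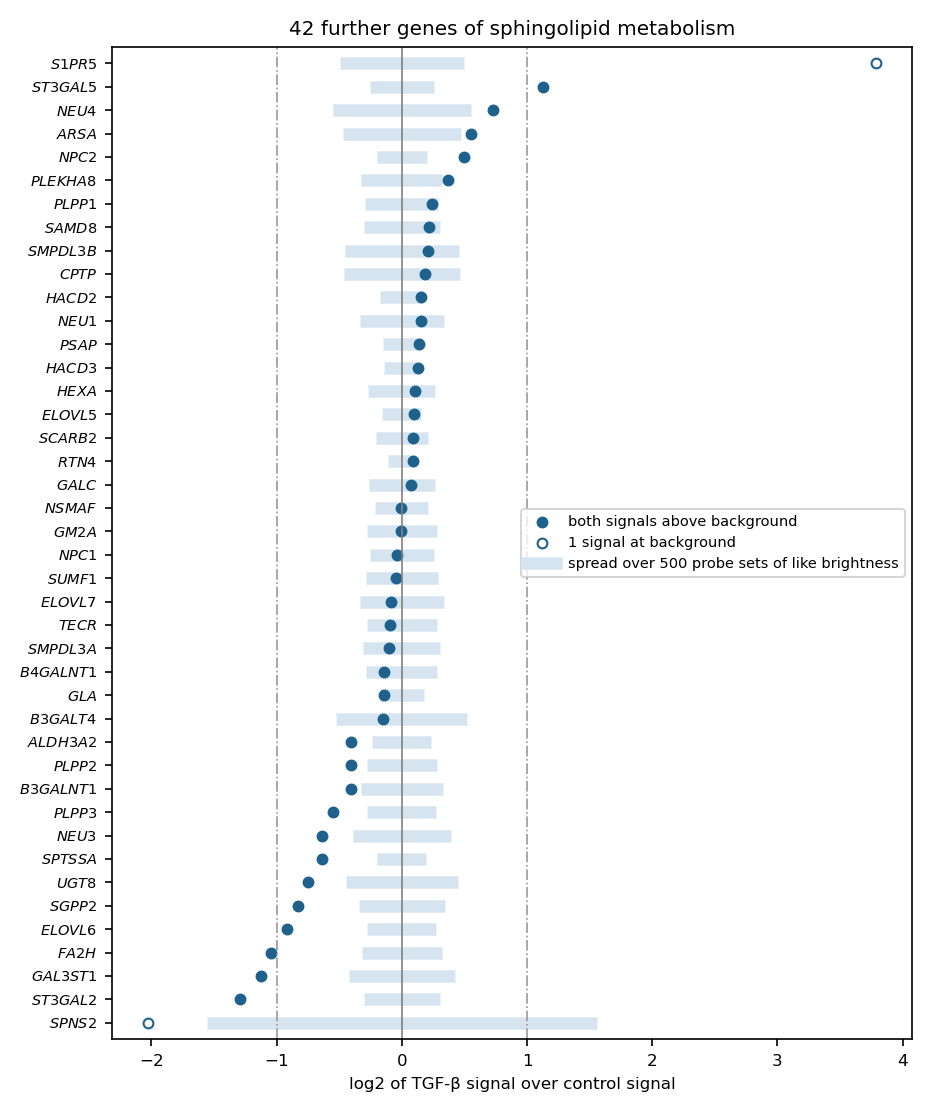
Log2 ratio of the TGF-β signal to the control signal (x axis) for the brightest probe set of 42 further genes of sphingolipid metabolism, in order of the ratio. Filled points have both signals above background and open points have 1 signal at background, blue bars span the spread over the 500 probe sets of like brightness, and broken lines mark 2-fold. S1PR5 and ST3GAL5 lie right of the upper line, and SPNS2, ST3GAL2, GAL3ST1 and FA2H left of the lower one.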

How the data were processed

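RNA of A549 cells with TGF-β (12 h, 1 ng/ml) and of control cells was hybridized to Affymetrix arrays, 1 per condition. The authors deposited linear intensities, for which the submitters' processing notes give MAS5 but no version. The mean signal after trimming 2% at each end was 500 on both arrays, so they had been scaled to the same target. Other MAS5 settings: not given in the sources used here.

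Ratios, log2 values and counts were computed in Python 3.11.15 (pandas 2.3.3, numpy 2.4.6, statsmodels 0.14.6 for loess, scipy 1.17.1), with matplotlib 3.10.9 for plots. Among 54613 non-control probe sets, 41091 had 1 gene symbol in the platform annotation, 1801 had several and 11721 were unnamed here, and only those with 1 symbol were assigned to genes. Older symbols were replaced by way of RefSeq gene identifiers (GRCh38.p14), and 31 of the 39 genes were matched in the RefSeq promoter table. A signal at or under background was raised to it to give "at least" folds. The spread is a scaled median absolute deviation (factor 1.4826) over log2 ratios of 500 probe sets.

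With 1 array per condition the comparisons are descriptive, and precision is limited by the number of arrays. The genes and lists were chosen with earlier results of these data known. All 39 genes could be named, and of the wider list those at least 2-fold changed. SPTSSA, UGT8, ELOVL6, SGPP2, PSAP, HEXA, ARSA, NEU3, NEU4 and the genes whose upstream sequences are shown were chosen after their values were seen. The alternatives were other filters, a floor at background, an offset, rescaling by medians, quantiles or loess (span 0.3), other choices of probe set, and omission of shared-target probe sets.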

Additional observations from a re-analysis of the deposited data

How the results depend on the processing

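No paired analysis was possible because each condition had 1 array. Variation between cultures is not covered by any of these settings, and signals near background have no precision of their own. SPHK1 had a log2 fold change between 1.75 and 2.0 in the 9 alternatives that gave a value, and had none without shared-target probe sets. The ranges were 0.62 to 0.75 for SGPL1, -1.09 to -0.67 for UGCG and -0.90 to -0.85 for S1PR3, over 10 alternatives each. The median log2 fold change of the genes compared, which were not the same 28 in every alternative, stayed between 0.05 and 0.15. Without the filter 34 genes were compared, of which 2 (SPHK1 and SMPD3) were at least 2-fold higher, 4 at least 1.5-fold higher and 5 at least 1.5-fold lower. SMPD3 was at background on both arrays. When each gene took its most changed probe set, 1 gene (UGCG) was at least 2-fold lower and 4 were at least 1.5-fold higher. Without shared-target probe sets, 23 genes were compared, 0 at least 2-fold higher and 1 (SGPL1) at least 1.5-fold higher, as SPHK1 then has no probe set. For these last 3 alternatives the shares of all genes were not counted. Their counts are therefore not read as a result about the genes of the list. With the filter at the 75 percentile (mean signal of 349), 24 genes were compared, and 2.52% of all genes were at least 2-fold higher and 0.806% at least 2-fold lower. CERS3 was under 1.5-fold with the offset of 50 and with each rescaling.

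The same alternatives were applied to the wider list after its values had been seen. Of its genes 42 were compared as reported and with the offset of 50, 48 if unfiltered and 29 under the stricter filter. Its 4 genes at least 2-fold lower became 8 of 48 without the filter and 2 of 29 with the stricter filter (0.806% of all genes). They became 1 of 42 with the offset and 3 of 42 with the floor at background, where SPNS2 had -0.63. Its 9 genes at least 1.5-fold lower became 14 without the filter and 4 with the stricter one (3.9% of all genes). For alternatives other than the stricter filter the shares of all genes were not counted, so those counts have nothing to stand against. Its 2 genes at least 2-fold higher became 1 with the stricter filter and 1 without shared-target probe sets, and its 3 genes at least 1.5-fold higher became 1 with the stricter filter and 5 when each gene took its most changed probe set. ST3GAL2, with a log2 fold change of -1.29, turned to 0.061 by the median over probe sets and to 0.46 without shared-target probe sets. S1PR5 had 2.62 with the offset. By construction, filter and offset bear mostly on dim genes. For the remaining shifts the cause was not tested.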
